A study of Andropogon gerardi with 32 samples.

Results

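Cab-m7, pgr5 and lls1 were followed under ambient and altered rainfall in leaves of the prairie grass Andropogon gerardii (big bluestem). These 3 gene symbols of the platform's probe annotation stand for light harvesting, cyclic electron flow and chlorophyll breakdown. All probes with one of these symbols were taken, which gave 4 of the 10447 probes on the array: probes 4707 and 3766 of Cab-m7 (Entrez gene 542381), probe 2855 of pgr5 (Entrez gene 606462) and probe 4676 of lls1 (Entrez gene 542575). The annotation pairs 728 probes with 1 symbol each (506 symbols) and leaves 9719 unnamed here. The symbols are those of maize genes, so each value below is the signal of a spot with that annotation, and whether the spot measured the matching big bluestem transcript was not tested.

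Total RNA of leaves was hybridised in 32 samples, 16 from ambient and 16 from altered rainfall. The labels give the species, the tissue and the rainfall group, and do not say how rainfall was altered or give the age or genotype of the plants. Each ramp number in the titles occurs once per group, and in all 16 cases the missing spots of the pair are identical, so both samples were treated as the 2 channels of 1 array. Which dye marked which channel is not given. Whether a dye effect on a spot contributed to its difference between the rainfall groups was therefore not tested. The descriptions have 3 wordings. Numbers 2 to 6 (4 arrays) name plots, while numbers 7 to 10 (4 arrays) and 11 to 19 (8 arrays) name plants. Nothing in the labels says that samples of a group always came from separate plants, and the p-values therefore measure only a spread between samples, which may be technical.

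Chlorophyll a/b-binding proteins such as Cab-m7 bind antenna pigments and pass absorbed light energy to the photosystems. PGR5 is a thylakoid protein, described first in Arabidopsis, that is needed for cyclic electron flow around photosystem I, which builds the proton gradient across the thylakoid membrane without net reduction of NADP. The maize gene lls1 (lethal leaf spot 1) encodes pheophorbide a oxygenase, which opens the chlorophyll ring during chlorophyll breakdown. Of 122 symbols listed for light harvesting and the photosystems, cyclic electron flow, chlorophyll turnover, carbon fixation and organs other than leaf, 3 matched a symbol of the annotation, and these are the genes described here. The match was by name alone. The annotation also holds symbols of the LOC form, whose functions were not looked up, so other genes of these pathways may be among them or among the unnamed probes. None of the 23 carbon fixation symbols and none of the 18 symbols for other organs matched. On the list for light harvesting and the photosystems only Cab-m7 matched, so the leaf label was not verified. Under ambient rainfall probe 4707 was brighter than a median of 99.9% of spots in its channel, and probe 3766 than 45.4%.

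In the comparison of altered with ambient rainfall, which asks how leaf expression differed under a changed rainfall regime, probe 4707 of Cab-m7 fell, and probe 3766 of Cab-m7, pgr5 and lls1 did not pass the test. A difference between the changes of any pair of these probes was not shown after quantile normalization (exact sign-flip permutation tests, adjusted p from 0.34 to 0.72 over 6 pairs). All 4 probes had a value above 0 in at least 8 samples of each group and were tested (limma on quantile-normalized log2 intensities, Benjamini-Hochberg adjustment over 6384 probes, threshold 0.05). The 1 of 4 called stands beside 9.02% of all probes called, and 4.98% called lower under altered rainfall. The median fitted change over all probes was 0.10 log2 units with this normalization. In leaf RNA, fewer cells of a type and less RNA per cell cannot be told apart. The part of dye in these changes was not tested, since the dyes are not given.

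The brightness of the deposited channels bears on these values. On 14 of 16 arrays the brightest spot of the ambient channel and the brightest of the altered channel agreed within 2%, whereas the medians of the channels agreed within 2% on only 1 array, number 8. The exceptions were numbers 11 and 17, where the altered maximum was 1.66 and 1.36 times the ambient maximum. The channels thus matched in their maxima and not in their medians, where the altered channel ran from 1.18 log2 units below to 2.61 above the ambient channel. The brightest spot was not always the same probe in both channels (on number 7, probe 4707 in the ambient and 653 in the altered channel). Equal maxima therefore do not show that deposited values of a bright spot are comparable between channels. Probe 4707 of Cab-m7 was itself the brightest ambient spot on numbers 7 and 19. The arrays held values for 1833 (number 7) to 9530 (number 2) spots, and probe 3766 and lls1 had a value on 10 arrays each. Across the spots of an array, the log2 intensities of its channels correlated at r = -0.31 on number 7 and 0.052 on number 9, against 0.20 to 0.76 on the other 14 arrays.

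Probe 4707 of Cab-m7 gave a strong signal in every sample. Under ambient rainfall its deposited intensity ran from 2468 (number 7) over a median of 7275 to 17844 (number 2). Under altered rainfall it ran from 513 (number 7) over a median of 3914 to 12514 (number 10). The groups overlapped, but within arrays the altered channel was the lower one on 14 of 16, the exceptions being numbers 4 and 10. The within-array difference in deposited log2 intensity had a median of -1.03 and ran from -2.27 (number 7) to 1.07 (number 10).

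The rank of this spot among all spots of its own channel needs no scaling. Ranked from the brightest, the spot had a median place of 10 (1 to 30) under ambient and 20 (5 to 74) under altered rainfall. Its place was lower under altered rainfall on 14 of 16 arrays, all except numbers 10 and 12. On numbers 7 and 19 the ambient place was already 1, so the altered place could not be higher there. Number 10 was the exception by both measures, and after within-array loess it was the only array with a higher altered value (0.39). With median centring number 10 gave -1.46 instead, and the only array above 0 was number 9 (0.010).

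After quantile normalization the level of probe 4707 in log2 units was 12.76 ± 0.47 (SD, n = 16) in ambient samples. In altered samples it was 11.88 ± 0.63 (SD, n = 16). On numbers 7 and 19, where probe 4707 was the brightest ambient spot, normalization gave its ambient channel the same top value, 13.67. Its normalized altered value could therefore not be higher on these arrays, which the fit below includes. The fitted change was -0.88 ± 0.24 (SE), with a 95% interval from -1.36 to -0.39 (limma, adjusted p = 0.012). The estimate was nearly the same with within-array loess (-0.87 ± 0.17, SE; limma, adjusted p = 0.0029) and on deposited values (-0.89), while median centring gave -1.53 ± 0.34 (SE; limma, adjusted p = 0.0021). The like size on deposited values stands against another background. There the median change over all probes was 0.57, against 0.10 with quantile normalization, 0.014 with loess and -0.032 with median centring. On deposited values the change of probe 4707 did not pass when samples were treated as unpaired (limma, adjusted p = 0.21) and passed when compared within arrays, with the replicate block (SE 0.23; limma, adjusted p = 0.016), a fit chosen after seeing the data. Numbers 7 and 19 had the fewest spots and numbers 7 and 9 the lowest channel correlations, and with these 3 arrays left out the estimate of -0.64 no longer passed (adjusted p = 0.068 in limma).

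**Figure D1:**
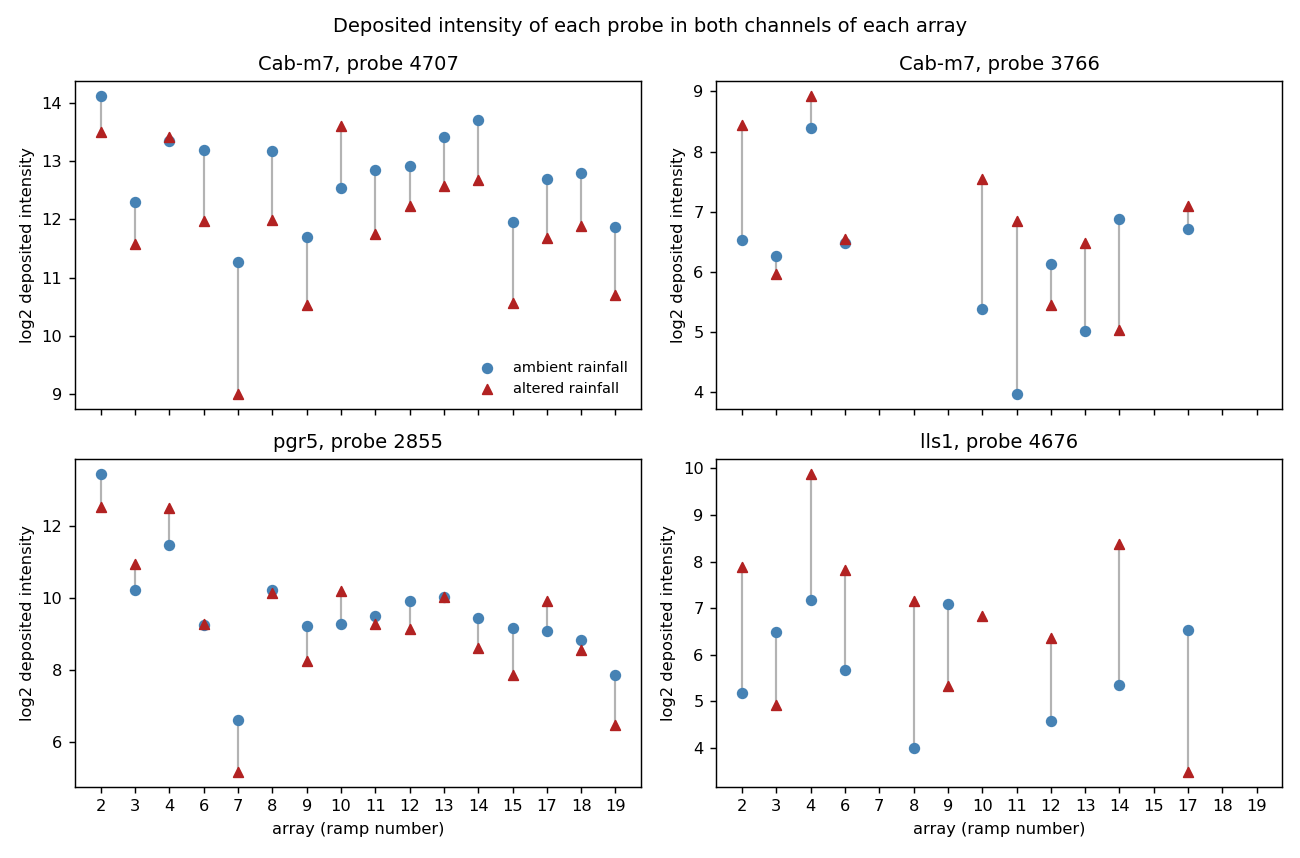
Deposited intensity on a log2 scale (vertical axes, which differ between panels) of the 4 probes in the ambient (circles) and altered (triangles) channel of each array (horizontal axis), with a grey line joining the 2 channels. Probe 4707 of Cab-m7 was lower in the altered channel on 14 of 16 arrays; probe 3766 and lls1 lack values on several arrays, and the lls1 ambient value of number 10 is 0 and not drawn.

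Probe 3766 of Cab-m7 was measured on 10 arrays. Its within-array difference had an SD of 1.44 in deposited log2 values, against 0.71 for probe 4707 over 16 arrays, and of 0.71 against 0.78 after quantile normalization. Its deposited intensity under ambient rainfall ran from 15.8 (number 11) over a median of 83.0 to 337 (number 4), and under altered rainfall from 32.9 (number 14) over 104 to 486 (number 4). The groups overlapped over most of their range. In deposited values the altered channel was higher on 7 of 10 arrays, and after quantile normalization it was higher on 4 of 10. The largest rise in deposited values, 2.87 log2 units on number 11, became 0.28 after normalization, on an array whose altered channel had a median 1.98 log2 units above the ambient one.

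In ambient samples the normalized log2 level of probe 3766 was 6.44 ± 0.54 (SD, n = 10), and in altered samples it was 6.29 ± 0.82 (SD, n = 10). The change of -0.15 ± 0.35 (SE) did not pass (limma, adjusted p = 0.85) and had a 95% interval from -0.86 to 0.57. On deposited values the estimate was 0.66 (limma, adjusted p = 0.48). Within-array differences after normalization ran from -1.70 (number 12) to 0.89 (number 17), and without number 12 the change was 0.023.

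Whether both Cab-m7 probes changed to an unlike extent was tested on the 10 arrays that measured them. On these arrays the normalized within-array difference averaged -0.62 for probe 4707 and -0.15 for probe 3766. The gap of -0.47 ± 0.35 (SE) did not pass (exact sign-flip permutation test, two-sided, p = 0.23, adjusted over 6 pairs of probes 0.34), and its 95% interval was -1.27 to 0.32. On deposited log2 intensities, where any constant factor on a channel cancels between the probes, the gap was -1.27 ± 0.44 (SE), below 0 on 9 of 10 arrays (exact permutation test, p = 0.014, adjusted 0.041). Median centring shifts each channel by a constant and so leaves this deposited gap unchanged. The call that the probes of the gene differed thus depended on the kind of normalization.

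The pgr5 probe was measured in all 32 samples. Its deposited intensity ran from 98.0 (number 7) over a median of 658 to 11080 (number 2) under ambient rainfall. Under altered rainfall it ran from 36.0 (number 7) over 620 to 5894 (number 2). The medians lay close together, the groups overlapped almost fully, and the same arrays held the lowest and the highest value in both groups. Within arrays the altered channel was lower on 11 of 16 in deposited values and on 13 of 16 after quantile normalization.

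At both extremes, high and low pgr5 levels were shared by the channels of an array. After quantile normalization numbers 2, 3 and 4 held the 3 highest levels in either group (10.74 to 11.60 under ambient, 10.38 to 11.19 under altered rainfall), and numbers 7 and 19 were the 2 lowest under altered rainfall, at 4.95 and 6.77, and under ambient rainfall, at 8.11 and 8.42. These are the arrays with the fewest spots (1833 and 2323), and the part of spot number in the low values was not tested. The mean log2 level of pgr5 was 9.69 ± 0.88 (SD, n = 16) in ambient samples, and 9.06 ± 1.58 (SD, n = 16) in altered ones.

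The change of pgr5 was -0.63 ± 0.41 (SE), with a 95% interval from -1.46 to 0.21 (limma, adjusted p = 0.40). Compared within arrays its error fell to 0.25 and its unadjusted p was 0.021, without passing over all probes (adjusted p = 0.12 in limma with that block). After loess the estimate was -0.65 ± 0.24 (SE; limma, adjusted p = 0.099). The size of the estimate depended on the setting: it was -0.94 with median centring, -0.30 on deposited values and -0.26 with sample weights (limma, adjusted p = 0.28, 0.73 and 0.65). Number 7 alone differed by -3.16. With numbers 7, 9 and 19 left out the estimate was -0.29 (limma, adjusted p = 0.68). The normalized within-array difference of pgr5 was not shown to differ from that of probe 4707 (a gap of -0.25 ± 0.17, SE, probe 4707 minus pgr5, 16 arrays; exact permutation p = 0.15, adjusted 0.34). On deposited values probe 4707 fell further than pgr5, by 0.59 ± 0.16 (SE), with the gap below 0 on 12 of 16 arrays (exact permutation p = 0.0029, adjusted 0.018).

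**Figure D2:**
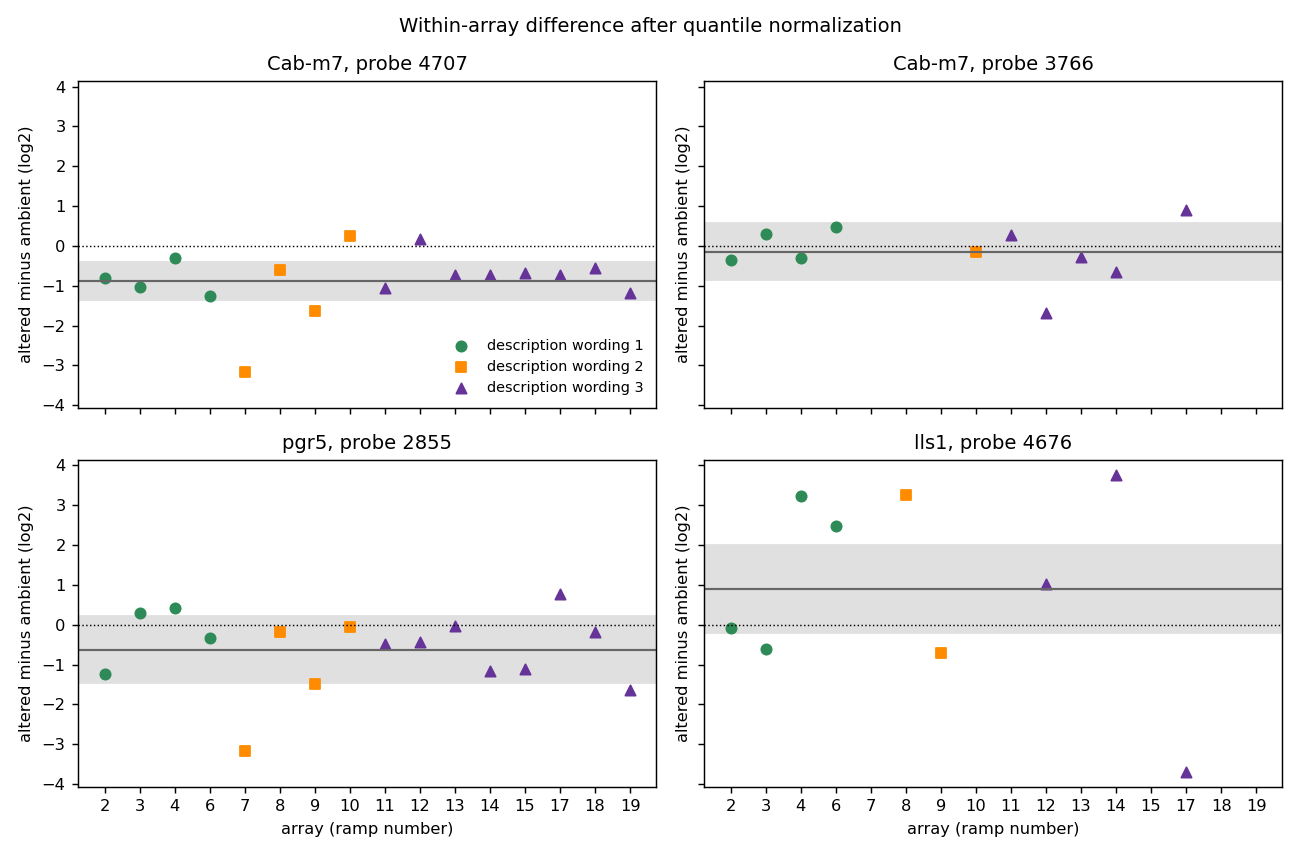
Altered minus ambient within each array after quantile normalization, in log2 units (vertical axis), by ramp number (horizontal axis), with symbols for the 3 wordings of the sample description. The grey line and band are the fitted change and its 95% interval: the band lies below 0 for probe 4707 of Cab-m7 (-1.36 to -0.39) and spans 0 for the other probes, and the lls1 points spread from -3.70 to 3.77.

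The lls1 probe was dim, and the sign of its within-array difference varied between arrays. Under ambient rainfall its deposited intensity was listed at 0 on number 10, had a median of 46.0 over 10 arrays and reached 144 (number 4). Under altered rainfall it ran from 11.2 (number 17) over a median of 128 to 942 (number 4). The groups overlapped, and the median under altered rainfall lay near the top of the ambient range. Seen by its place in the channel, the spot was brighter than a median of 10.8% of spots under ambient and of 37.2% under altered rainfall, and this share was higher under altered rainfall on 6 of 10 arrays.

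On the 9 arrays with both values above 0, the normalized lls1 difference was above 2 log2 units on numbers 4 (3.23), 6 (2.47), 8 (3.25) and 14 (3.77) and 1.02 on number 12. It was -0.080 on number 2, -0.61 on number 3, -0.70 on number 9 and -3.70 on number 17. Values above and below 0 occurred in each of the 3 wordings of the description. Of the 4 values below 0, only that of number 17 was of the size of the highest values. In ambient samples the normalized log2 level of lls1 was 5.41 ± 1.18 (SD, n = 9), and in altered samples it was 6.32 ± 1.53 (SD, n = 10).

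The fitted change of lls1 was 0.91 ± 0.54 (SE), with a 95% interval from -0.20 to 2.01 (limma, adjusted p = 0.34). Without number 17 it was 1.45 ± 0.48 (SE; limma, adjusted p = 0.053), and without number 14 it was 0.57 (limma, adjusted p = 0.62). With loess it was 0.41 ± 0.88 (SE; limma, adjusted p = 0.82), and with sample weights 1.32 ± 0.50 (SE; limma, adjusted p = 0.087). The gap between probe 4707 of Cab-m7 and lls1, -1.73 ± 0.80 (SE) over 9 arrays, was below 0 on 8 of them and did not pass (exact permutation p = 0.066, adjusted 0.34). The remaining pairs, probe 3766 with pgr5 (0.077), probe 3766 with lls1 (-1.06) and pgr5 with lls1 (-1.33), did not pass either (exact permutation, adjusted p = 0.72, 0.45 and 0.34).

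**Figure D3:**
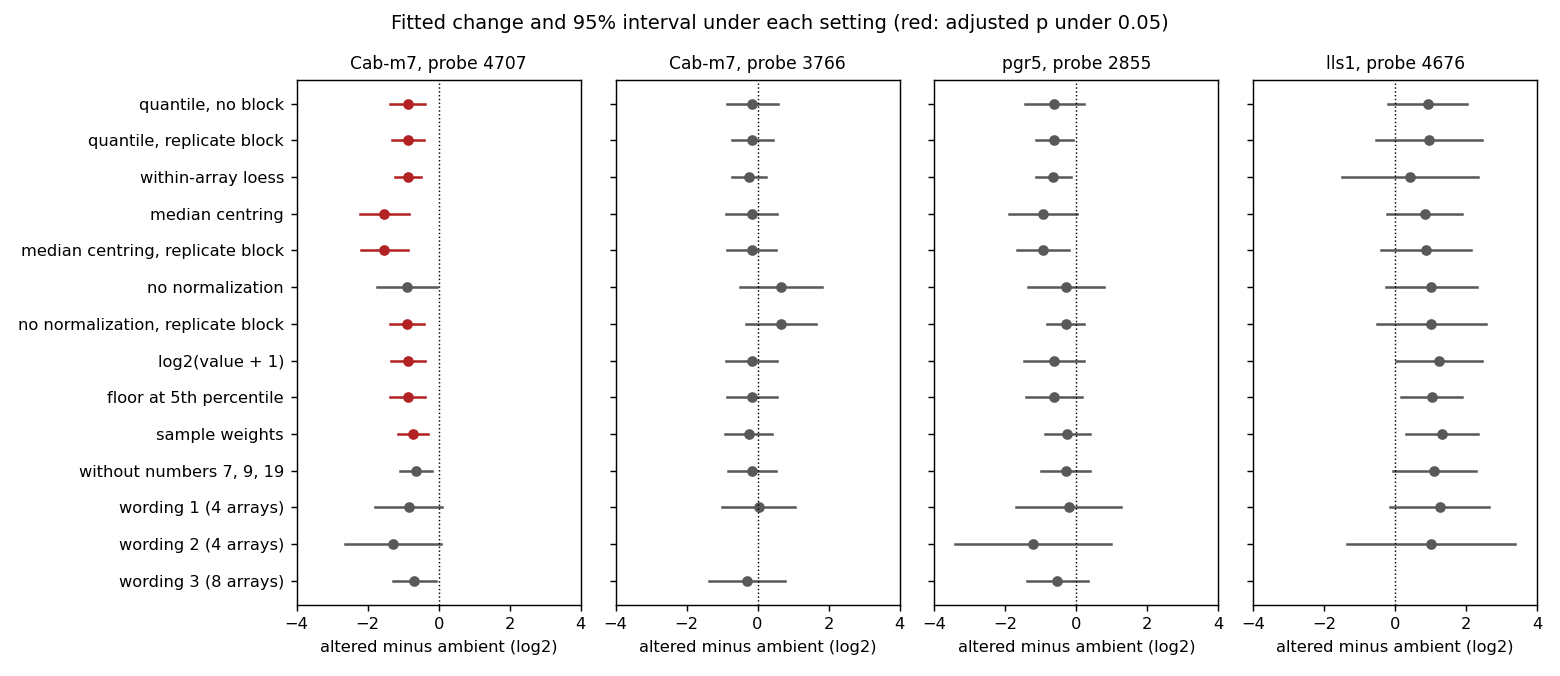
Fitted change, altered minus ambient, in log2 units (horizontal axis) with its 95% interval for each of the 4 probes, under the main setting (top) and alternatives (vertical axis), red where the adjusted p was under 0.05. Probe 4707 of Cab-m7 was below 0 in every setting drawn, from -0.64 to -1.53, and no setting called another probe; gaps mark settings in which a probe had too few values.

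The rainfall difference was set against the wording of the sample descriptions. For probe 4707 of Cab-m7 the fitted change was -0.85 in numbers 2 to 6, -1.29 in numbers 7 to 10 and -0.68 in numbers 11 to 19, and it passed in none of them (limma, adjusted p = 0.51, 0.61 and 0.21). In numbers 11 to 19 its within-array difference was below 0 on 8 of 8 arrays in deposited values and on 7 of 8 after quantile normalization. For pgr5 the changes were -0.21, -1.22 and -0.54. For lls1 they were 1.25 in numbers 2 to 6 and 1.01 in numbers 7 to 10, where only 2 arrays held both values. Numbers 11 to 19 had too few lls1 values for this fit. On the 3 of these arrays with both values, the normalized lls1 difference averaged 0.36 (-3.70 to 3.77). A difference of the rainfall effect between the sets was not detected for these 3 probes (each with adjusted p = 0.999 by limma's moderated F-test), and probe 3766, with a value on only 1 array of numbers 7 to 10, was not tested.

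Whether the genes varied together was examined in the within-array difference, in the ambient level and in the altered level, which gave a family of 18 correlations across arrays. In the within-array difference, probe 4707 of Cab-m7 and pgr5 correlated at r = 0.73 (permutation p = 0.0039, adjusted 0.035) and rho = 0.58 (permutation p = 0.021, adjusted 0.16) over 16 arrays. This relation rested on a few arrays: without numbers 7 and 10 it was r = 0.40 (permutation p = 0.16), and without numbers 7, 9 and 19 it was r = 0.12. Within numbers 11 to 19 it was r = 0.29 (exact permutation p = 0.50). The other 5 pairs had r from -0.63 to 0.48 over 7 to 10 arrays, and none passed in r or rho.

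Both Cab-m7 probes tended in opposite directions, with r = -0.63 (permutation p = 0.051, adjusted 0.31) and rho = -0.45 (permutation p = 0.19, adjusted 0.49) over 10 arrays, which did not pass. Without numbers 10 and 12 the value was r = -0.47 (exact permutation p = 0.24). On deposited values the same pair gave r = 0.32, so its sign depended on scaling. Between lls1 and the other probes the within-array difference gave r = 0.24 with probe 4707, -0.47 with probe 3766 and -0.23 with pgr5 (adjusted permutation p = 0.72, 0.58 and 0.72).

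In the levels, the pair of probe 4707 and pgr5 had r = -0.73 (permutation p = 0.00098, adjusted 0.018) and rho = -0.67 (permutation p = 0.0058, adjusted 0.10) under ambient rainfall after quantile normalization, but r = 0.77 on deposited values and 0.69 with median centring. On numbers 7 and 19 probe 4707 held the top normalized value of the ambient channel, 13.67. Without these arrays the value was r = -0.51 (permutation p = 0.063), and within numbers 11 to 19 it was r = -0.61 (exact permutation p = 0.11). Under altered rainfall this pair gave r = 0.35 and rho = 0.11 (permutation, adjusted p = 0.47 and 0.79). The sign of this correlation of levels thus changed with the scaling, and no pair of genes kept a correlation past the threshold in every setting tried.

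**Figure D4:**
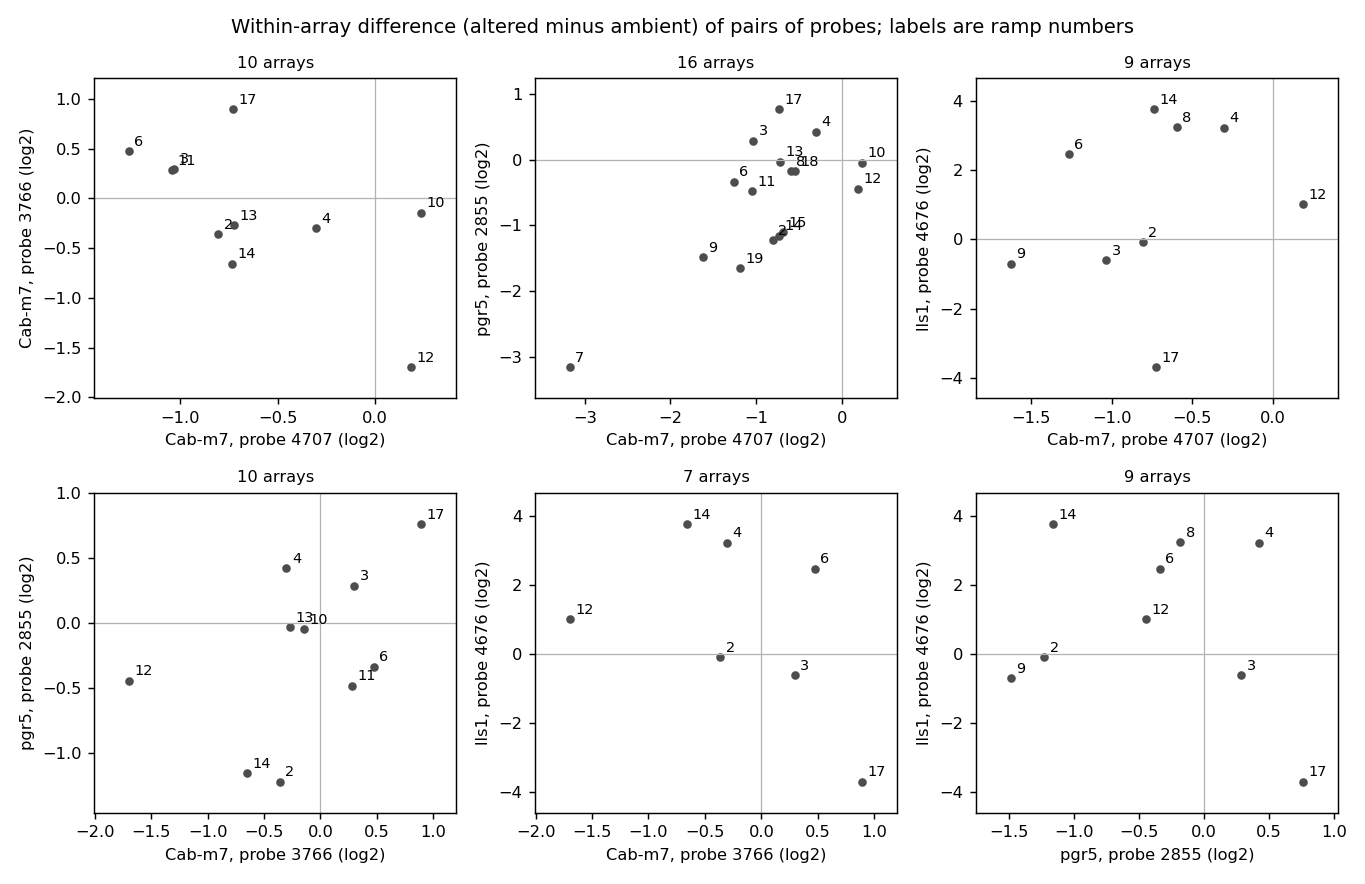
Each panel plots the within-array difference (altered minus ambient, log2, quantile-normalized) of one probe against that of another, with a point per array labelled by its ramp number. In the panel of probe 4707 and pgr5 (r = 0.73 over 16 arrays) number 7 lies apart from the rest at -3.17 and -3.16, and the panels with lls1 hold 7 or 9 arrays without a common direction.

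The genes most like the members were sought among the probes with a symbol, by the correlation of the within-array difference over at least 12 arrays, as a description with no test. For probe 4707 of Cab-m7, 341 probes could be compared, with a median r of -0.058. The highest were LOC542603 (probe 907, r = 0.89), LOC542212 (probe 756, r = 0.86) and the other probe of LOC542212, 2163 (r = 0.86), each over 16 arrays. Without number 7 these were 0.71, 0.65 and 0.62. For pgr5 the highest were LOC541619 (probe 9955, r = 0.85), LOC542603 (probe 907, r = 0.78) and LOC542320 (probe 10978, r = 0.76), and 0.68, 0.53 and 0.47 without number 7. Of these 5 probes, 907 (-1.81), 2163 (-1.36) and 10978 (-1.82) fell under altered rainfall (limma, adjusted p = 0.0031, 0.020 and 0.00087). Probe 756 (-1.30) and probe 9955 (-0.84) did not pass (limma, adjusted p = 0.0503 and 0.14). Over all probes, 4.98% were called lower under altered rainfall. These probes were chosen by the likeness of this same difference to probe 4707, which fell, or to pgr5. A shared fall was thus partly built into the choice and is no separate evidence. Probe 3766 and lls1 had a value on too few arrays to be compared.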

How the data were processed

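Each sample has 1 deposited column of linear intensities, a value per spot. The steps by which the authors made these intensities are not given in the sources used here. In the deposited intensities, 1 channel of 15 arrays was in whole numbers (tolerance 1e-06), while its partner held multiples of a factor (the altered one on 11 arrays, the ambient one on 4), so the channels had been scaled. Local background and detection limits are unknown, and the number of arrays and of spots with a value limits the precision.

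Intensities of 0 (1509 of 194148 values) were set missing, the rest taken as log2 and, because sample medians ran from 4.25 to 8.62, quantile-normalized between samples. Two-sided tests of altered against ambient rainfall used lmFit and eBayes of limma 3.58.1 under R 4.3.3, with no block, over probes with at least 8 values per group. The fit was tested on simulated data drawn without correlation between the channels of an array. That test therefore says nothing about leaving out the block. Pairs of probes were compared by exact sign flips over arrays, and correlations by permutation (100000 resamples, or exact below 10 arrays; Python 3.11.15). Gaps between probes are given with intervals from the t distribution. Alternatives were within-array loess (span 0.4), median centring, no normalization, log2(value + 1), a floor at the 5th percentile, filters, sample weights, the ramp number as replicate block, the description wording, and arrays left out.

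Every probe annotated with one of the 3 symbols is named, with the 3 named probes of highest r to each. Members and lists were chosen with earlier results of these data known.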

Additional observations from a re-analysis of the deposited data

Results flagged for a closer look

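Of 15 groups of 4 to 10 values checked for a value far from the others, 2 held one, and chance flags about 1 in 20 such groups. The normalized lls1 level (probe 4676) under altered rainfall on number 17 was 2.83 log2 units, against 5.81 for the nearest of the other 9 samples. Among numbers 11 to 19, the within-array difference of probe 4707 of Cab-m7 on number 12 was 0.19, against -0.55 for the nearest of the other 7 arrays. In deposited values number 12 gave -0.69 for this probe.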

How the results depend on the processing

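The fall of probe 4707 of Cab-m7 kept its direction in all settings tried. It passed with the replicate block (fixed or random), loess, median centring, log2(value + 1), the floor, the filters, sample weights and the wording as covariate, and did not pass without normalization (-0.89), without numbers 7, 9 and 19 (-0.64) or within the sets of 4, 4 and 8 arrays (-0.85, -1.29 and -0.68; fewer samples). Leaving out each number gave -0.95 to -0.74 (adjusted p from 0.0089 to 0.035). Probe 3766 turned to 0.66 without normalization (also with the replicate block), to 0.027 within numbers 2 to 6, and ranged from -0.27 to 0.023 when each number was left out; the cause was not tested. The count of 576 called probes was 343 without normalization, 1041 with that and the replicate block, 131 among probes with a value in all 32 samples (fewer tested), and 10, 0 and 307 within the sets (fewer samples; in the set with 0, limma gave 560 probes at an unadjusted p under 0.05). Over all probes the median change, 0.10 in the main setting, was -0.032 under median centring, 0.014 under loess and 0.57 without normalization.

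The replicate block changed no call of the 4 probes with quantile normalization (-0.88, -0.15, -0.63 and 0.96 for probes 4707, 3766, 2855 and 4676). Deviations of samples with the same number correlated above 0.1 for 14 of 16 numbers over the 894 probes with a value in all samples, where 13 ambient samples correlated best with their own number, and for 2 of 16 over all tested probes.

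Between probes, the gap from probe 4707 to probe 3766 (-1.27) and to pgr5 (-0.59) passed without normalization. Median centring leaves these gaps unchanged. When each number was left out, probe 3766 minus pgr5 ran from -0.010 to 0.22, and probe 4707 minus lls1 from -2.32 to -1.38 (it passed without number 17).

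The correlation of differences between probe 4707 and pgr5 (0.73) passed with median centring (0.90), without normalization (0.66) and with log2(value + 1) (0.74; permutation, adjusted p = 0.00018, 0.011 and 0.040). It was 0.49 with loess, 0.12 without numbers 7, 9 and 19, 0.29 in numbers 11 to 19 and 0.40 without the 2 farthest arrays, none of which passed. It ran from 0.41 to 0.77 when each number was left out (it did not pass without 4, 7, 9 or 19). That of pgr5 with lls1 ran from -0.44 to 0.26, and that of both Cab-m7 probes was 0.32 without normalization. For ambient levels, probe 4707 with pgr5 (-0.73) was 0.77 without normalization, 0.69 with median centring, -0.51 without numbers 7, 9 and 19, -0.61 in numbers 11 to 19, -0.51 without the 2 farthest arrays and -0.81 to -0.65 with each number left out (it did not pass without 7 or 19). Without normalization both Cab-m7 probes gave 0.29 and pgr5 with lls1 -0.13 (-0.020 with median centring). Probe 3766 with lls1 gave -0.17 with log2(value + 1), -0.050 with the floor and -0.0075 to 0.49 with each number left out, and probe 4707 with lls1 0.30 without the 2 farthest arrays and -0.35 to 0.13 with each number left out. For altered levels, probe 4707 with pgr5 (0.35) was 0.84 without normalization, 0.70 with median centring, -0.12 without numbers 7, 9 and 19, -0.25 in numbers 11 to 19, -0.26 without the 2 farthest arrays and -0.094 to 0.50 with each number left out. Without normalization the value was 0.83 for probe 3766 with pgr5, 0.32 for probe 3766 with lls1 (-0.61 to 0.24 with each number left out), 0.58 for both Cab-m7 probes, 0.66 for probe 4707 with lls1 and 0.36 for pgr5 with lls1 (0.00078 without the 2 farthest arrays). Probe 4707 with lls1 was 0.039 with the floor, 0.21 with median centring and -0.13 to 0.14 with each number left out. The causes were not tested. Dim spots limit probe 3766 and lls1, which had values on 10 arrays each.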
